A study of Mus musculus with 18 samples.

Results

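The genes described here encode proteins of the mitochondrial ribosome. They were chosen by name: every gene symbol of the array annotation made of Mrpl (large subunit) or Mrps (small subunit) followed by a number and at most 1 letter. This gave 77 genes of the 19938 that have a probe set of their own, 48 named Mrpl and 29 named Mrps. Each gene was followed on 1 probe set, the one with the highest mean over the 18 arrays. There are 85 such probe sets, since 8 genes have 2. Mrpl53 is not among the 77, because its probe set is also assigned to another gene.

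The arrays hold total RNA of natural killer (NK) cells from the spleen of ICR mice aged 6 weeks, sorted as NKp46+ cells. All mice, WT and KO alike, had been given 2 injections, 2 days apart, of a complex of interleukin-15 (IL15) with its receptor alpha chain (Ra), so no group shows resting cells. WT mice were Runx3 +/+ and KO mice Runx3 -/-, a genotype carried by every cell of the mouse and not by NK cells alone; Runx3 is a transcription factor of the Runx family. Cells were sorted into the immature CD27+CD11b- subset (CD27), the mature CD27+CD11b+ subset (DP) and the mature CD27-CD11b+ subset (CD11b), which gives 6 groups of 3 arrays. The labels do not say whether a sample is 1 mouse or a pool, nor whether a number marks the same mice in each subset, so p-values measure the spread between these samples only.

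Mitochondria have their own ribosomes, which make the few proteins encoded in mitochondrial DNA, all of them membrane subunits of the respiratory chain and ATP synthase. The ribosomal RNA is transcribed inside the organelle, while every ribosomal protein is encoded in the nucleus, made in the cytosol and imported. Part of the proteins have a relative in bacterial ribosomes, and the others were added in the mitochondrial lineage. Interleukin-15 is known to drive growth and mitochondrial respiration in NK cells, and a high output of respiratory chain subunits needs such ribosomes. By role, 26 of the 77 encode large subunit proteins of bacterial type, 3 encode the stalk and its base, and 21 were grouped as mitochondria-specific large subunit proteins. A further 15 were grouped as small subunit proteins of bacterial type and 11 as mitochondria-specific small subunit proteins. Mrps18a and Mrps30 were placed with the large subunit, where their proteins sit in spite of their names. The mitochondria-specific groups include Mrps18a and Mrps18b, although both descend from a gene for a bacterial ribosomal protein, and may hold other such cases. Mrps36 is listed apart, since its product is now known as a part of the 2-oxoglutarate dehydrogenase complex.

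The sort and the genotype were checked on their own genes. Ncr1, which encodes NKp46, lay between 13.45 and 13.81 on the log2 scale on every array. Cd27 lay between 8.75 and 10.22 on the 6 CD11b arrays and between 11.03 and 11.91 on the other 12. Itgam, which encodes CD11b, lay between 9.25 and 10.62 on the CD27 arrays and between 11.59 and 12.63 on the others. Runx3 itself was lower on all 3 KO arrays than on all 3 WT arrays of each subset, with means of 11.45 and 10.93 in the CD27, 11.48 and 10.84 in the DP, and 11.76 and 11.27 in the CD11b subset. The labels do not say which exons are deleted, and a probe set can also read remaining transcript. The arrays of KO sample 3 stood apart: the median of 29 cell cycle genes was 10.31 to 10.64 there, 6.94 to 8.07 on the other KO arrays and 6.38 to 6.99 on the WT arrays. The median of 9 dendritic cell and MHC class II genes was 6.93 to 10.46 on the arrays of KO sample 3, 5.37 to 6.95 on the other KO arrays and 5.23 to 5.56 on the WT arrays. On its CD11b array the macrophage gene Lyz2 read 12.27 and the MHC class II chain Cd74 11.68, where the WT CD11b arrays read 5.02 to 5.32 and 5.12 to 5.26. The median of 14 NK cell genes was 12.54 to 12.87 on the arrays of KO sample 3 and 12.74 to 13.22 on the others. The part of these markers in the results was not tested, and results that rest on KO sample 3 are also given without it.

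The mitochondrial ribosomal protein genes were well above the low end of the array. For 74 of 77 the mean over 18 arrays was above the median of all probe sets, 6.33 on the log2 scale. The median of the 77 values on an array was 8.13 to 8.46 on WT arrays, 8.17 to 8.38 on the arrays of KO samples 1 and 2, and 8.27 to 8.42 on those of KO sample 3. By group, that median was 8.33 ± 0.03 in WT and 8.33 ± 0.13 in KO cells of the CD27 subset, 8.24 ± 0.12 and 8.33 ± 0.05 in the DP subset, and 8.35 ± 0.10 and 8.29 ± 0.01 in the CD11b subset (mean ± SD, n = 3 arrays each). The ranges of the 3 sets of arrays overlapped, and so did the 2 genotypes in every subset. The median of the 29 genes named Mrps alone did not overlap in CD11b cells, with 8.07 to 8.08 on the WT and 7.91 to 7.95 on the KO arrays. Groups by role separated too, in both directions. The 15 small subunit genes of bacterial type, part of these 29, had 8.049 to 8.088 on WT and 7.905 to 8.025 on KO CD11b arrays. The 21 mitochondria-specific large subunit genes lay higher in KO DP cells, with 8.559 to 8.737 against 8.347 to 8.553 in WT. None of these separations was tested. Single genes varied more: the median distance between the highest and the lowest array was 0.66, and it exceeded 1 for 14 members. Within a group the median SD of a member was 0.13, against 0.11 over all probe sets. In bulk RNA of this kind, a change in the share of cells of a type and a change in RNA per cell cannot be told apart.

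**Figure D1:**
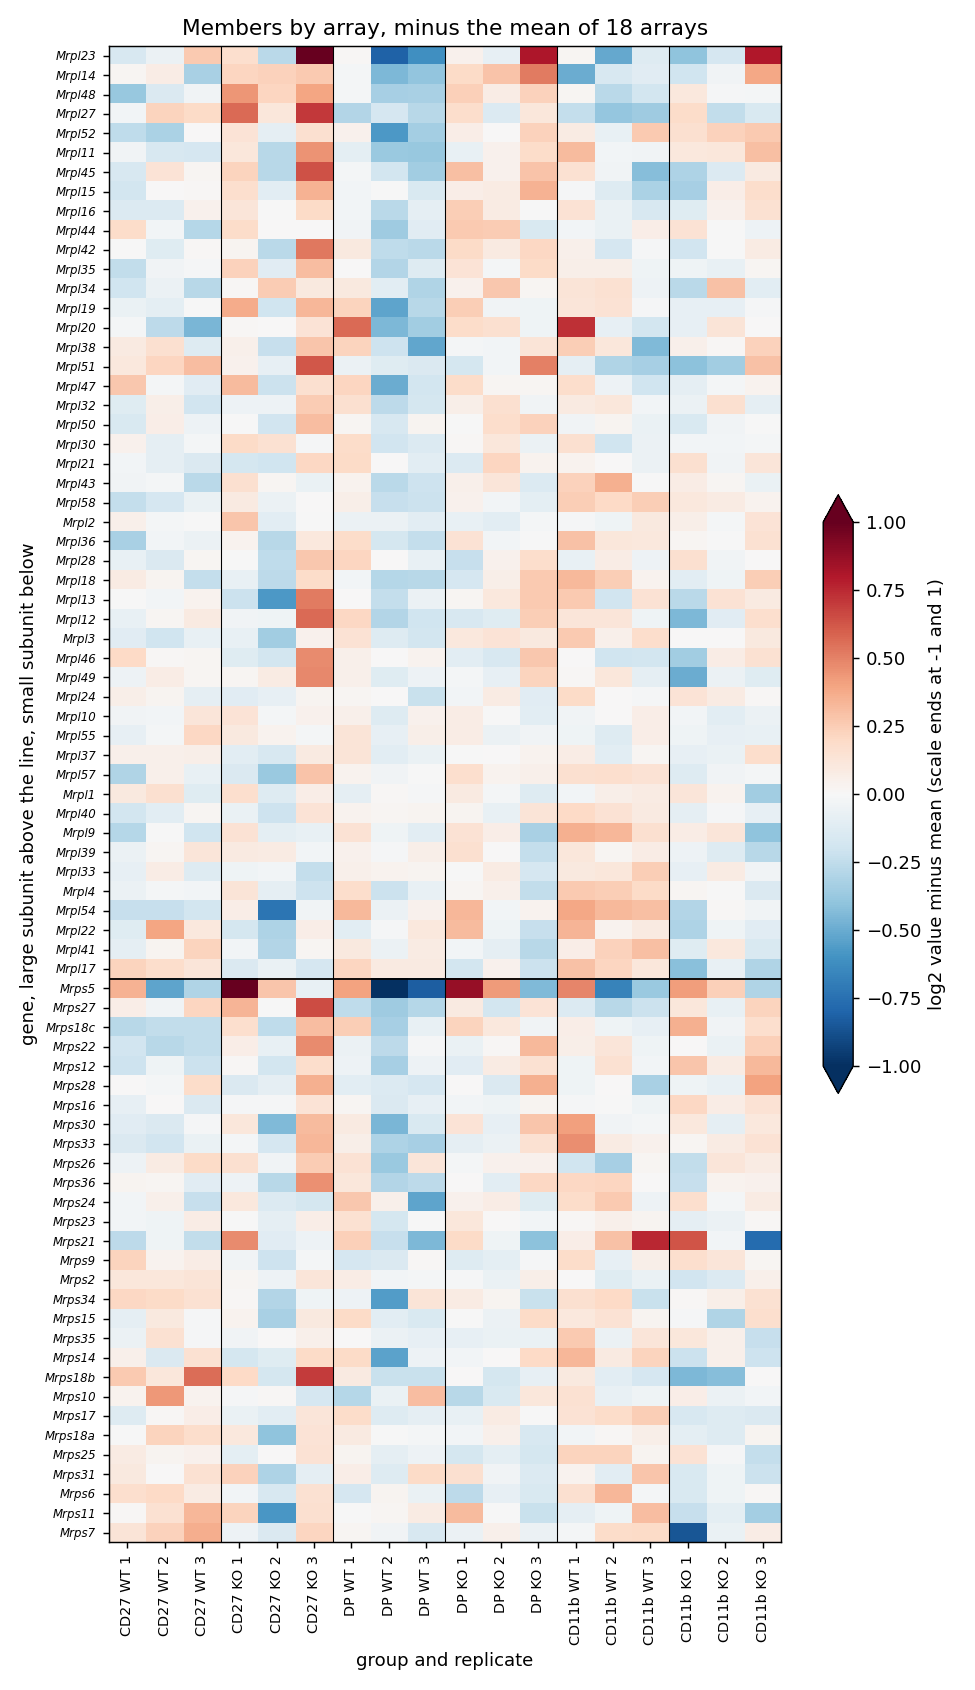
Each row is 1 of the 77 genes and each column 1 of the 18 arrays; the colour is the log2 value minus the gene's own mean over the 18 arrays, and black lines separate the 6 groups and, across, genes named Mrpl (top) from those named Mrps. Within each block the genes run from the highest to the lowest averaged difference of KO minus WT. CD27 KO replicate 3 holds the highest value of 21 members and DP WT replicate 2 the lowest of 22, counts that were not made over all probe sets. Mrpl17, at the foot of the upper block, is the only row that lies lower on every KO array than on every WT array.

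The first question of the design is which genes depend on Runx3. Few of the 77 genes differed between WT and KO cells, in either direction, and the median of all 77 overlapped between the genotypes in each subset. A gene is called here when the p of its moderated test in limma, after Benjamini-Hochberg adjustment across the 35399 probe sets, is under 0.05. In CD27 cells 1 member was called higher and none lower in KO, in DP cells none was called, and in CD11b cells 1 was called lower and none higher. Averaged over the 3 subsets, 4 were called higher (Mrpl14, Mrpl27, Mrpl48 and Mrps27) and 1 lower (Mrpl17), all but Mrps27 of the large subunit. This average counts each array as a sample of its own, which the labels do not settle. With the arrays of a sample number averaged first 0 members were called, where 0.0763% of all probe sets were called higher and 0.124% lower. With the replicate number as a random block 2 members were called, and the share of all probe sets was not set beside this count. The level of Xist, given further below, was not balanced between the genotypes.

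These counts stand beside a background of calls among all probe sets. In CD27 cells 0.257% of probe sets were called higher and 0.65% lower in KO. The corresponding shares were 0.169% and 0.226% for DP, then 0.455% and 0.836% for CD11b cells. For the average, which sets 9 arrays against 9, they were 2.8% higher and 5.28% lower. The members' 4 higher and 1 lower of 77 is thus a small share of the list in each direction, and nothing particular to the list is read from it. The median difference of KO minus WT over the members was 0.04 in CD27, 0.08 in DP and -0.07 in CD11b cells, and 0.02 on average. Over all 19938 genes it was -0.01, -0.01, -0.02 and -0.01. Without a threshold, 45 of 77 members lay higher in KO in CD27 cells, 60 in DP cells and 30 in CD11b cells. The share of all genes that lay higher was not set beside these counts, and nothing particular to the list is read from them. At an unadjusted limma p under 0.05, 9 members passed in CD27 cells, where 11.6% of all probe sets did. The count was 9 in DP cells (9.64% of probe sets), 14 in CD11b cells (13%) and 19 on average (20.8%). Without overlap between the genotypes, 6 members were higher and 4 lower in KO CD27 cells, against 5.66% and 10.7% of probe sets. In DP cells 10 were higher and 2 lower (6.07% and 8.53% of probe sets), and in CD11b cells 2 were higher and 15 lower (7.5% and 11.2%).

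**Figure D2:**
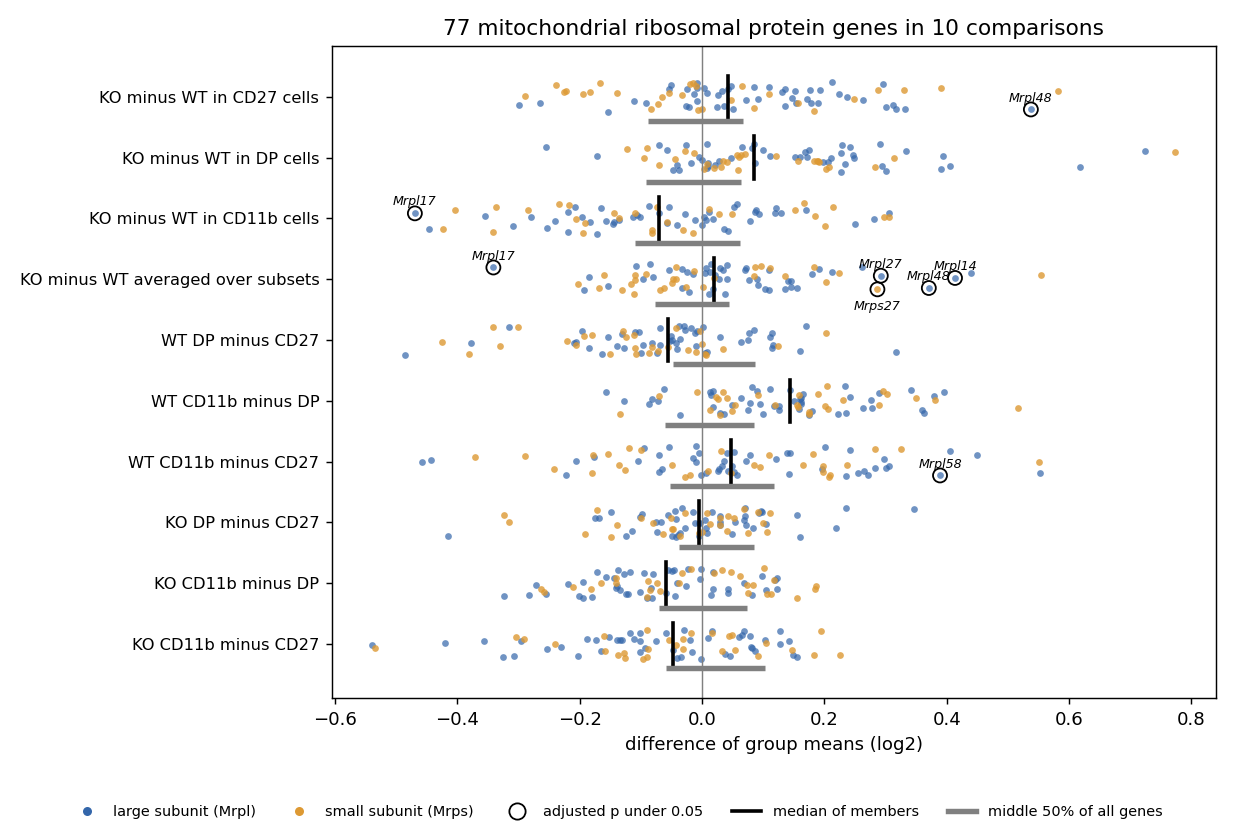
Each point is 1 of the 77 genes in 1 of 10 comparisons, placed on the horizontal axis by the difference of group means on the log2 scale; blue is Mrpl, orange Mrps, a ring marks an adjusted p under 0.05 and the vertical position within a line has no meaning. Black bars are the members' medians and grey bars the middle 50% of all genes; in each comparison the members spread to both sides of 0, with medians between -0.07 and 0.14 and at most 5 called members.

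Mrpl17 encodes a large subunit protein of bacterial type near the tunnel through which the new chain leaves. Its values in CD27 cells were 8.80, 8.75 and 8.70 on the WT arrays and 8.43, 8.51 and 8.41 on the KO arrays. In DP cells they were 8.79, 8.67 and 8.67 in WT and 8.39, 8.62 and 8.36 in KO. In CD11b cells they were 8.87, 8.79 and 8.69 in WT and 8.16, 8.5 and 8.28 in KO. Every KO array thus lay below every WT array, in all subsets together. The KO mean was 1.38-fold lower in CD11b cells (95% interval 1.21 to 1.58, limma adjusted p = 0.0156) and 1.27-fold lower on average (1.17 to 1.37, adjusted p = 0.00107). In CD27 and DP cells it was 1.23-fold and 1.19-fold lower, with limma adjusted p of 0.156 and 0.341, so the gene did not pass there. Mrpl17 was the only 1 of 77 members, or 1.3%, with all 9 KO arrays below all 9 WT arrays, which held for 0.525% of all probe sets. The reverse, all KO arrays above all WT arrays, held for 0 members and 0.61% of probe sets.

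The call of Mrpl17 on average was kept when any 1 array was left out, with limma adjusted p of 0.000325 to 0.00337. It was also kept without the 3 arrays of KO sample 3 (difference -0.31, adjusted p = 0.00931). Treating the 3 subsets of a sample number as 1 sample, which leaves 3 WT against 3 KO values, gave the same difference and an adjusted p of 0.187. In CD11b cells the call was lost without WT replicate 1 (adjusted p = 0.0742), WT replicate 2 (0.0751), KO replicate 1 (0.0795) or KO replicate 3 (0.0717), all by limma. It was also lost without all 3 arrays of KO sample 3 (adjusted p = 0.0629) and in a fit of the CD11b arrays alone (0.218).

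Mrpl48 encodes a mitochondria-specific protein of the large subunit. It has 1 probe set, and whether that set lies in the gene or reads a related sequence elsewhere was not checked. Its values in CD27 cells were 9.67, 9.91 and 10.02 in WT and 10.49, 10.27 and 10.45 in KO. In DP cells they were 10.03, 9.72 and 9.73 in WT and 10.29, 10.13 and 10.28 in KO. In CD11b cells they were 10.07, 9.78 and 9.87 in WT and 10.16, 10.04 and 10.03 in KO. The genotypes did not overlap in CD27 and DP cells and overlapped in CD11b cells. The KO mean was 1.45-fold higher in CD27 cells (1.23 to 1.71, limma adjusted p = 0.0352) and 1.29-fold higher on average (1.18 to 1.42, adjusted p = 0.00266). In DP cells the difference was 0.41, with a limma adjusted p of 0.179. The call on average was kept without any 1 array (adjusted p at most 0.00761) and without KO sample 3 (adjusted p = 0.0165). With the subsets of a sample number taken as 1 sample, the limma adjusted p was 0.117. The call in CD27 cells was lost without CD27 WT replicate 1 (0.114), WT replicate 2 (0.1), KO replicate 1 (0.127), KO replicate 3 (0.0888) or CD11b WT replicate 3 (0.0525). It was lost too without the whole of KO sample 3 (limma adjusted p = 0.092) and in a fit of the CD27 arrays alone (0.212).

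Mrpl14 encodes a large subunit protein of bacterial type at the face that meets the small subunit. It stood at 7.35, 7.40 and 7.0 in WT and 7.54, 7.56 and 7.59 in KO CD27 cells. In DP cells it was 7.31, 6.88 and 6.93 in WT and 7.52, 7.61 and 7.85 in KO. In CD11b cells it was 6.83, 7.17 and 7.21 in WT and 7.13, 7.29 and 7.71 in KO. The KO arrays lay above the WT arrays in CD27 and DP cells, and 1 of 3 KO arrays fell among the WT arrays in CD11b cells. On average the KO mean was 1.33-fold higher (1.16 to 1.53, limma adjusted p = 0.0149). In DP cells, where the difference was 0.62, the adjusted p was 0.159. Leaving out any 1 array kept the call on average (adjusted p at most 0.0357). Without the arrays of KO sample 3 the limma adjusted p was 0.0613, at a difference of 0.32, and with subsets of a sample number averaged it was 0.192.

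Mrps27 encodes a small subunit protein with pentatricopeptide repeats, a fold known for binding RNA. In CD27 cells it was 6.57, 6.47 and 6.72 in WT and 6.85, 6.5 and 7.16 in KO. In DP cells it was 6.25, 6.15 and 6.22 in WT and 6.60, 6.32 and 6.64 in KO. In CD11b cells it was 6.37, 6.23 and 6.29 in WT and 6.62, 6.43 and 6.73 in KO. The KO arrays lay above the WT arrays in DP and CD11b cells and overlapped with them in CD27 cells. The averaged KO mean was 1.22-fold higher (1.08 to 1.37, limma adjusted p = 0.0402). The adjusted p was 0.077 with the replicate number as a random block and 0.406 with the subsets of a sample number averaged first.

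Mrpl27 encodes a large subunit protein of bacterial type near the centre where peptide bonds form. In CD27 cells it was 8.5, 8.75 and 8.72 in WT and 9.09, 8.64 and 9.23 in KO. In DP cells it was 8.23, 8.36 and 8.25 in WT and 8.70, 8.39 and 8.64 in KO. In CD11b cells it was 8.29, 8.14 and 8.17 in WT and 8.71, 8.28 and 8.37 in KO. KO replicate 2 was the lowest of the KO arrays in each subset, for Mrpl27 as for Mrps27. The averaged KO mean of Mrpl27 was 1.23-fold higher (1.08 to 1.39, limma adjusted p = 0.0443). The adjusted p was 0.0993 with the random block and 0.368 with the subsets of a sample number averaged first. Its second probe set differed by 0.21 in the same direction, and the mean of both did not pass (adjusted p = 0.152). Probe sequences were not used here, for Mrpl27 or any other member. Whether either set lies in the Mrpl27 gene or reads a related sequence elsewhere was thus not checked. These 2 calls were the least stable of the 5. The Mrpl27 call was lost on leaving out any 1 of 15 of the 18 arrays (limma adjusted p 0.0552 to 0.0874) and held without CD27, DP or CD11b KO replicate 2 (0.00814, 0.0316 and 0.0302). The Mrps27 call was lost on leaving out any 1 of 14 arrays (limma adjusted p 0.0526 to 0.0843) and held without CD27 WT replicate 3 (0.0422) or any of those KO replicate 2 arrays (0.00656, 0.0255 and 0.0286). Without KO sample 3 the limma adjusted p was 0.133 for Mrpl27, at a difference of 0.26, and 0.144 for Mrps27, at a difference of 0.19; with all arrays both differences were 0.29.

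**Figure D3:**
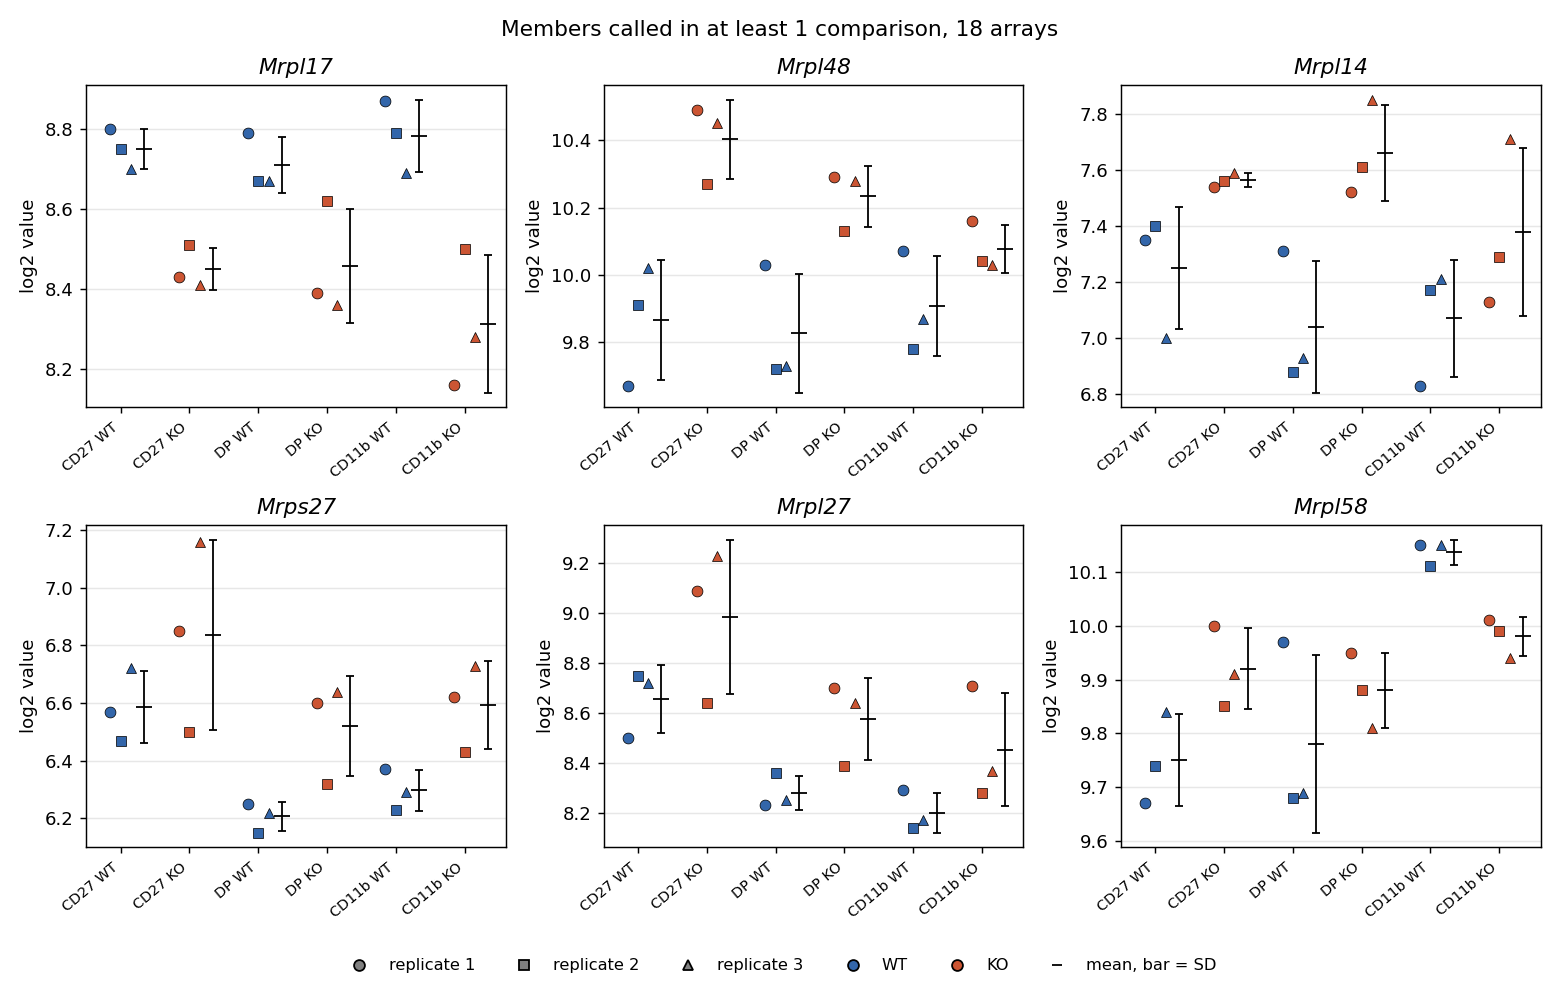
Each panel shows 1 gene called in at least 1 comparison, with the log2 value of each array on the vertical axis and the 6 groups on the horizontal axis; blue is WT, red KO, the symbol gives the replicate number, and the black mark is the mean with its SD (n = 3). The vertical scales differ between panels and do not start at 0. Mrpl17 lies lower on all 9 KO arrays (8.16 to 8.62) than on all 9 WT arrays (8.67 to 8.87), while the other genes overlap between genotypes in at least 1 subset.

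Because the promoters of the members that passed are where a transcription factor could act, 280 bases around the start of transcription (250 before it and 30 after) were taken from RefSeq for GRCm38.p6. The table held 74 such windows for 68 of the 77 members. Capitals mark exact matches, on either strand, to 6 motifs: GCATGCGC (the core of an NRF1 site), CCGGAAGT (ETS factors such as GABP), CACGTG (the E-box of Myc), AAGATGGCG (YY1), and TGTGGT and TGCGGT (2 forms of the Runx core). NRF1 and GABP are known regulators of nuclear genes for mitochondria. The promoters of Mrpl17 (chr7:105811058-105811337, minus strand), Mrpl48 (its second of 4 windows, chr7:100607593-100607872, minus strand), Mrps27 (chr13:99344536-99344815, plus strand) and Mrpl27 (chr11:94653541-94653820, plus strand) are shown 5′ to 3′. These genes passed and hold a match. Windows 3 and 4 of Mrpl48 hold a match too, and the window with the most matches is shown. For Mrpl48 and Mrpl27 the limit on probe sets given above applies.
Mrpl17: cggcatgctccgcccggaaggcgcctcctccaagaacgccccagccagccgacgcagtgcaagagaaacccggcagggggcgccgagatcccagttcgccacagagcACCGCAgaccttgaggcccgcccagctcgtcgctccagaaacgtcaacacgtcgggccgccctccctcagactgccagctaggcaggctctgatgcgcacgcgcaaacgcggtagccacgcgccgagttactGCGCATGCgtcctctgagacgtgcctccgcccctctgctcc
Mrpl48: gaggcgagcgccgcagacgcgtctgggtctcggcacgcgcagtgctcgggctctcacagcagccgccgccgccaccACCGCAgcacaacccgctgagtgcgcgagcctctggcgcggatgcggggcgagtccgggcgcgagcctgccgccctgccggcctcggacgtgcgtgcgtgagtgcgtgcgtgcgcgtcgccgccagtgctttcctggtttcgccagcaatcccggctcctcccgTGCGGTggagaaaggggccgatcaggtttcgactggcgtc
Mrps27: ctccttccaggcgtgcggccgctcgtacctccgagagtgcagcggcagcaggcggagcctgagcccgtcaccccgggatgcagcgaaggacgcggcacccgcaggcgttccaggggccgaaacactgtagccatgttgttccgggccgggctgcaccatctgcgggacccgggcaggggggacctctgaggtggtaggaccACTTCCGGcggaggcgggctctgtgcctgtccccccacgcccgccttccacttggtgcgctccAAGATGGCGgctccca
Mrpl27: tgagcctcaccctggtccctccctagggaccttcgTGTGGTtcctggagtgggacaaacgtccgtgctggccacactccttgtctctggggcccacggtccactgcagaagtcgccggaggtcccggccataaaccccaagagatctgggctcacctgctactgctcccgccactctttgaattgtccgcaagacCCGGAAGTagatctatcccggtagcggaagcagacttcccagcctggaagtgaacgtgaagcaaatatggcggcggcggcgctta

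In the Mrpl17 window the NRF1 match began at position -11 from the start and a TGCGGT match at -143, both on the opposite strand. The second Mrpl48 window held TGCGGT at -10 and, on the opposite strand, at -174. Window 3 of this gene held TGTGGT at -196, window 4 an ETS match on the opposite strand at -35, and window 1 none. In the Mrps27 window an ETS match on the opposite strand began at -49 and a YY1 match at 15. The Mrpl27 window held an ETS match at -55 and TGTGGT at -215. The windows of Mrpl14 and Mrpl58 held none of these letters. Either Runx form occurred in 17 of 74 member windows, or 23%, against 20.8% of all 32851 windows in the table. For TGTGGT alone the shares were 10.8% and 15.6%, and for TGCGGT 12.2% and 5.87%. NRF1 matches were in 10.8% of member windows and 2.58% of all windows, ETS matches in 16.2% and 3.72%, YY1 matches in 5.41% and 1.05%, and E-boxes in 9.46% and 6.79%. The median GC content was 58.4% in member windows and 52.5% in all windows, and the part of GC content in these shares was not tested. A match is a run of letters and does not show that a factor binds there.

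Of the 26 large subunit members of bacterial type, 2 rose and 1 fell on average, the genes given above, and 1 fell in CD11b cells. Their median difference on average was 0.04. Of the 21 mitochondria-specific large subunit genes 1 passed on average (Mrpl48), with a median of 0.04. The small subunit held 15 genes of bacterial type, none of which passed in any subset or on average (medians -0.05 in CD27, 0.06 in DP, -0.06 in CD11b cells and -0.04 on average). Its 11 mitochondria-specific genes held 1 call, Mrps27, with a median of -0.01 on average. Among the genes that came next in each subset, Mrps22, a small subunit protein, differed by 0.39 in CD27 cells (limma adjusted p = 0.242). Mrps17, of bacterial type, was 1.26-fold lower in KO CD11b cells, with 7.91, 7.94 and 7.92 in KO against 8.21, 8.25 and 8.31 in WT, without overlap and with a limma adjusted p of 0.076. Mrps16 differed by 0.17 in CD11b cells (adjusted p = 0.258).

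The stalk recruits the translation factors. Mrpl12, its main protein, also known to bind the mitochondrial RNA polymerase, differed by 0.01 on average (95% interval -0.22 to 0.24, limma adjusted p = 0.966). Mrpl10, the base, differed by -0.01 (-0.10 to 0.07, adjusted p = 0.894). Mrpl11, beside it, differed by 0.21 (0.02 to 0.40, adjusted p = 0.178). None of the 3 passed in any comparison by limma. Mrpl12 was highest, at 8.09, on CD27 KO replicate 3 and lowest, at 7.07, on CD11b KO replicate 1, so the KO arrays held both of its ends.

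The decoding centre protein Mrps12 differed by 0.18 on average (limma adjusted p = 0.103). Mammals carry 3 genes descended from the gene for bacterial ribosomal protein S18. Mrps18a differed by -0.11 (adjusted p = 0.388), Mrps18b by -0.09 (0.721) and Mrps18c by 0.22 (0.148), so they were not called and their values lay on both sides of 0. Mrpl41 differed by -0.19 (adjusted p = 0.0793), and its second probe set by -0.13. Mrpl44, which has a fold of the RNase III family, differed by 0.15 (0.302). Mrps36 differed by 0.02 (0.942), and without it the members' median was 0.02 on average as well. These are limma values of KO minus WT averaged over the subsets.

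The members with the highest and the lowest means on their own probe sets did not pass in any comparison by limma. Probe sets differ in how strongly they bind, so their levels are not compared between genes. Mrps21 was 10.55 ± 0.12 in WT and 10.83 ± 0.32 in KO cells of the CD27 subset, 10.58 ± 0.36 and 10.64 ± 0.30 in the DP subset, and 11.10 ± 0.35 and 10.68 ± 0.70 in the CD11b subset (SD, n = 3). Mrpl40 was 10.41 ± 0.10 and 10.46 ± 0.17, 10.53 ± 0.01 and 10.53 ± 0.10, and 10.65 ± 0.05 and 10.44 ± 0.04 in the same order, and its CD11b arrays did not overlap between genotypes (limma adjusted p = 0.285; 1 for the interaction). Mrpl10 stayed between 10.26 and 10.52 on all arrays. Mrps12 lay between 5.81 and 6.47, Mrpl22, a protein of the exit tunnel, between 5.59 and 6.30, and Mrps28 between 5.04 and 5.77. The 3 highest values of Mrps28 (5.72, 5.72 and 5.77) were those of KO sample 3.

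Whether the genotype difference varies between subsets was tested by a moderated F test of the interaction, which called 0 members in limma, against 0.0113% of all probe sets. At an unadjusted limma p under 0.05 there were 2, Mrps17 (0.0185) and Mrpl58 (0.023), both at 1 after adjustment, and 4.18% of all probe sets. The next were Mrpl43 (0.0767), Mrpl9 (0.0821) and Mrpl48 (0.0877), each with an adjusted p of 1 in limma. The counts of members that lay higher in KO in DP cells (60 of 77) and lower in CD11b cells (47 of 77) therefore only describe the group means. The share of all genes was not set beside them. The members' median in DP cells moved with single arrays: it was 0.20 without DP WT replicate 1 and 0.03 without DP WT replicate 2.

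The second question is what happens as NK cells mature from the CD27 through the DP to the CD11b subset. In WT cells 1 member, Mrpl58, was called between the first and the last subset, and none was called in either of the 2 steps. From CD27 to DP the members' median was -0.06, with 57 of 77 lower, where all genes had a median of 0.02. From DP to CD11b the median was 0.14, with 67 of 77 higher, against 0.01 for all genes. Over both steps it was 0.05, against 0.03. The shares of all genes that lay lower or higher were not set beside the 57 and the 67. Nothing particular to the list is read from these 2 counts. The 2 steps share the DP WT arrays, so a low DP mean makes one negative and the other positive. The lowest value of 22 members was on DP WT replicate 2, and 63 members had their highest DP WT value on replicate 1. Such counts were not made over all probe sets. Without replicate 2 the median was 0.003 for the first step and 0.08 for the second, and without replicate 1 it was -0.13 and 0.18.

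The call rates around these counts were 0.218% higher and 0.339% lower for DP minus CD27, 0.308% and 0.218% for CD11b minus DP, and 2.88% and 2.13% for CD11b minus CD27 in WT. In limma, 6 members had an unadjusted p under 0.05 for DP minus CD27, 11 for CD11b minus DP and 14 for CD11b minus CD27, beside 8.25%, 8.36% and 16.8% of all probe sets. Of 77 members, 16 lay higher on all 3 CD11b WT arrays than on all 3 CD27 WT arrays and 6 lay lower. Among all probe sets the shares without overlap were 16.4% and 11.8%.

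Mrpl58 encodes a peptidyl-tRNA hydrolase built into the large subunit, which frees chains from stalled ribosomes. Its WT values were 9.67, 9.74 and 9.84 in CD27, 9.97, 9.68 and 9.69 in DP and 10.15, 10.11 and 10.15 in CD11b cells. The CD11b arrays lay above all the others, with a spread of 0.02 (SD). CD11b exceeded CD27 by 1.31-fold (1.17 to 1.47, limma adjusted p = 0.00826) and DP by 1.28-fold (1.14 to 1.44, adjusted p = 0.061). The call against CD27 was kept when any 1 array was left out (adjusted p 0.0018 to 0.0385). In KO cells the values were 10, 9.85 and 9.91 in CD27, 9.95, 9.88 and 9.81 in DP and 10.01, 9.99 and 9.94 in CD11b cells, and the 3 subsets overlapped. As given above, the test of that difference between genotypes had an adjusted p of 1.

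Other members with small p-values between WT subsets did not pass in limma. Mrps27 (-0.38, adjusted p = 0.395), Mrpl27 (-0.38, 0.441) and Mrps9 (-0.21, 0.494) had the smallest p from CD27 to DP. Mrpl43 (0.34, adjusted p = 0.297) and Mrpl18 (0.40, 0.393) followed Mrpl58 from DP to CD11b. Mrpl54 (0.55, adjusted p = 0.0854) and Mrpl27 (-0.46, 0.0898) followed it over both steps. WT CD11b arrays deviated together with same-numbered arrays of the other WT subsets, so a fit with the replicate number as a block is given too. With the replicate block, 7 members passed in CD11b minus CD27 in WT: Mrpl58, Mrpl9 and Mrpl43 higher and Mrpl51, Mrpl27, Mrps27 and Mrps2 lower. Their differences with that block ran from -0.46 for Mrpl27 to 0.45 for Mrpl9 (limma adjusted p 0.00537 to 0.0489), and 10.9% of all probe sets passed with it. In CD11b minus DP 2 passed with the block, Mrpl18 (adjusted p = 0.0258) and Mrpl58 (0.0391), against 2.4% of probe sets.

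In KO cells no member was called between subsets by limma, at a background of 0.00565% higher and 0.0141% lower for DP minus CD27, 0.282% and 0.232% for CD11b minus DP, and 1.25% and 0.828% for CD11b minus CD27. At an unadjusted p under 0.05 the counts were 3, 2 and 6, and the shares of all probe sets 5.66%, 8.12% and 13%. The medians were -0.005, -0.06 and -0.05, where all genes had 0.03, 0.0003 and 0.02. Mrpl27 had the smallest p from CD27 to DP (-0.41, limma adjusted p = 0.729), before Mrpl3 (0.24, 0.847) and Mrps27 (-0.32, 0.869). From DP to CD11b they were Mrps16 (0.16, adjusted p = 0.497), Mrps9 (0.19, 0.578) and Mrpl49 (-0.27, 0.627). From CD27 to CD11b they were Mrpl27 (-0.54, adjusted p = 0.0772), Mrpl49 (-0.42, 0.134) and Mrpl48 (-0.33, 0.175). Here too same-numbered arrays deviated together, and with the replicate block 3 members were lower in CD11b than in CD27 KO cells: Mrpl27 (limma adjusted p = 0.0117), Mrpl51 (0.0276) and Mrpl49 (0.0317), against 6.17% of all probe sets. Mrpl27 and Mrpl51 thus were lower in CD11b than in CD27 cells under the block in both genotypes, with log2 differences of -0.46 and -0.44 in WT and -0.54 and -0.36 in KO. Both probe sets of either gene had that sign. For Mrpl51 the second set differed by -0.41 in WT and -0.35 in KO, and for Mrpl27 by -0.34 and -0.41. The probe sets of neither gene were placed on the genome.

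The widest ranges between arrays belonged to members that did not pass the genotype test. Mrps5, a small subunit protein of bacterial type, spanned 2.11 log2 units. It lay at 8.64, 8.69 and 8.78 on the CD27, DP and CD11b arrays of WT sample 1, at 7.76, 7.25 and 7.62 on those of WT sample 2 and at 7.99, 7.47 and 7.92 on those of WT sample 3. In KO it lay at 9.36, 9.16 and 8.71 for sample 1, 8.57, 8.72 and 8.53 for sample 2 and 8.22, 7.85 and 7.99 for sample 3. It was thus high in 3 sample numbers (WT 1, KO 1 and KO 2) in every subset and low in the other 3, with the lowest high value at 8.53 and the highest low value at 8.22. Xist, the RNA that coats the inactive X chromosome in female cells, was at 5.13 to 5.69 on the same 9 arrays where Mrps5 was high and at 12.48 to 13 on the other 9. The sex of single samples was not taken from the labels, and its part in the Mrps5 pattern was not tested. The second Mrps5 probe set showed the same 2 levels, with 7.70 to 8.55 on the first 9 arrays and 6.84 to 7.58 on the others.

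Mrpl23 spanned 1.91 log2 units. On the arrays of KO sample 3 it was 10.51, 10.23 and 10.22 in CD27, DP and CD11b cells, and on the other 15 arrays it was 8.61 to 9.68. Its second probe set was 9.89 to 10.28 on the first 3 arrays and 8.35 to 9.40 on the others. These are the arrays with the high cell cycle and MHC class II values, whose part in it was not tested. Of the 77 members 27 had their highest value on an array of KO sample 3, and 21 of these on its CD27 array alone. Mrps21 ran the other way, with its lowest value, 9.96, on CD11b KO replicate 3. The counts of highest values were not made over all probe sets, and nothing particular to the members is read from them.

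**Figure D4:**
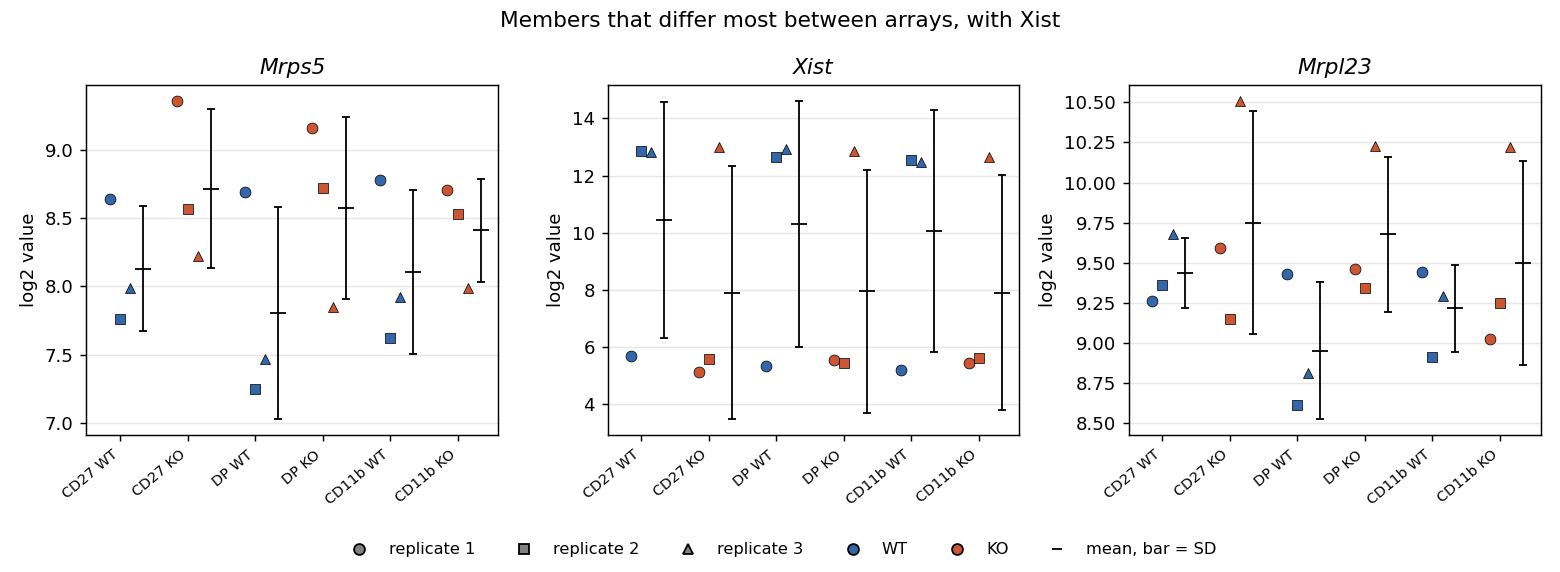
The log2 values of Mrps5, Xist and Mrpl23 on the 18 arrays are shown by group (horizontal axis); blue is WT, red KO, the symbol gives the replicate number and the black mark the mean with its SD (n = 3), and the vertical scales differ and do not start at 0. Mrps5 is high (8.53 or more) where Xist is low (5.69 or less), and Mrpl23 is above 10 on the 3 arrays of KO replicate 3 only.

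Among the other genes of mitochondrial protein synthesis and import, each list held 0 to 3 calls between the genotypes on average, beside the 2.8% of probe sets called higher and 5.28% called lower; nothing particular to a list is read from these counts. Of 14 mitochondrial translation factors, Tufm, the elongation factor that brings tRNA to the ribosome, fell 1.37-fold from CD27 to CD11b cells in WT (limma adjusted p = 0.00771). Mtfmt, which formylates the initiator tRNA, fell 1.12-fold in KO on average (adjusted p = 0.0425). Of 24 assembly factors and related genes, the mitochondrial protease Lonp1 rose 1.53-fold from CD27 to CD11b cells in WT (adjusted p = 0.0112) and Pnpt1, a mitochondrial RNA exonuclease, was 1.15-fold lower in KO on average (0.0374). In CD11b cells 21 of the 24 lay lower in KO without any passing, with a median of -0.19. The median of the list there was 8.005 to 8.159 on WT arrays, 7.79 and 7.84 for KO samples 1 and 2, and 7.677 for KO sample 3. The share of all genes that lay lower was not set beside this count. It was not tested, and nothing particular to the list is read from it. Lonp1 read 7.40, 7.30 and 7.54 in CD27 and 8.26, 7.86 and 7.98 in CD11b WT cells, without overlap.

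Of 16 mitochondrial tRNA synthetases, Cars2 (1.27-fold, limma adjusted p = 0.00288) and Wars2 (1.16-fold, 0.0194) were lower and Nars2 (1.44-fold, 0.048) higher in KO on average. Cars2 was 8.77 to 9.03 on KO and 9.31 to 9.34 on WT arrays of CD27 cells. Of 15 genes of mitochondrial DNA expression only the RNA polymerase Polrmt was called, 1.11-fold lower in KO on average (limma adjusted p = 0.0279). Of 14 genes of protein import, Timm17a and Pmpca were called lower and Pmpcb higher in KO on average, by 1.20-fold, 1.08-fold and 1.11-fold. None of 4 further mitoribosome proteins passed in any comparison by limma. For comparison, of 59 genes for cytosolic ribosomal proteins 11 were called higher and 1 lower in KO on average, at 2.8% and 5.28% of all probe sets. Their median difference was 0.10, where the mitochondrial set had 4 and 1 of 77 and a median of 0.02. The cytosolic set's median was 11.85 to 12.12 on the arrays of KO sample 3, 11.69 to 11.91 on the other KO arrays and 11.4 to 11.79 on the WT arrays. Without KO sample 3, 3 cytosolic genes were called higher and 1 lower, with a median of 0.07, at 2.74% and 3.57% of all probe sets. Of the genes of the related mitochondrial lists called on average, Cars2, Pnpt1 and Pmpcb were also called without KO sample 3, and Wars2, Nars2, Mtfmt, Polrmt, Timm17a and Pmpca were not. With the subsets of a sample number averaged first, 0 genes of these lists passed in limma, cytosolic ones included, against 0.0763% of probe sets higher and 0.124% lower. From CD27 to CD11b in WT, 3 cytosolic ones were called lower and none higher, with a median of -0.10, against 0.05 for the mitochondrial set and call rates of 2.88% higher and 2.13% lower. These sets were not tested against each other.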

How the data were processed

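RNA was amplified and labelled for Affymetrix Mouse Gene 1.0 ST arrays. The authors deposited log2 values, 1 column per array, made by RMA with Partek also named, per the submitters' processing notes. No versions are given there, and the log2 scale was read from the range of the values (3.911 to 14.965). They were used as deposited, with no filter; RMA levels the distributions of arrays, so a change shared by most genes cannot be seen. Of 35399 probe sets, 21789 have 1 gene symbol in the platform annotation, 1621 several and 11989 none; only the first kind was named. Arrays have no depth, so precision is set by how many there are.

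In limma 3.58.1 (R 4.3.3, statmod 1.5.0), 6 group means were fitted to 18 arrays (12 residual and 2.18 prior degrees of freedom), with 10 contrasts and 1 interaction F test, two-sided, adjusted by Benjamini-Hochberg over all probe sets. The average over subsets reuses the arrays of the 3 subset comparisons, and comparisons between subsets share arrays. The script was tested on simulated data. The members, the related lists and the rule for naming genes were chosen with earlier results of these data known. Named genes are, per comparison, called members (at most 6 per direction) or, under 3 calls, the 3 smallest p, with 5 for the interaction. Added to these are the 3 highest and 3 lowest means, a fixed set (Mrpl10, Mrpl11, Mrpl12, Mrpl41, Mrpl44, Mrpl53, Mrpl58, Mrps12, Mrps18a to c, Mrps36), and up to 3 called genes per related list and comparison. Mrps5, Mrpl23 and the blocked calls Mrpl51 and Mrps2 were named after their values were seen.

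Same-numbered arrays were taken as paired where every pair's deviations from the group means correlated over 0.1. This held between all KO subsets (0.213 to 0.642) and for WT CD11b with DP (0.248 to 0.456) and CD27 (0.218 to 0.324). It did not hold between WT CD27 and DP (-0.009 to 0.44) nor between genotypes. Blocked results are printed for the comparisons where it held. Alternatives were other scalings, a filter, variance priors, array weights, fewer arrays and blocks.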

Additional observations from a re-analysis of the deposited data

Results flagged for a closer look

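In 2 members every KO array of one subset lay above every WT array and every KO array of another subset lay below. Mrpl57 differed by 0.08 in DP cells and by -0.22 in CD11b cells (KO minus WT, log2). Its values were 9.23, 9.10 and 9.11 in KO and 9.10, 9.03 and 9.06 in WT DP cells, and 8.93, 9.03 and 9.04 in KO and 9.22, 9.23 and 9.21 in WT CD11b cells. In DP cells the lowest KO and the highest WT value both round to 9.10. They were parted by less than the last digit printed. Mrpl58, the peptidyl-tRNA hydrolase, differed by 0.17 in CD27 cells and by -0.16 in CD11b cells. The moderated F test of the interaction gave unadjusted limma p-values of 0.219 for Mrpl57 and 0.023 for Mrpl58, both at 1 after adjustment, so neither difference between subsets passed. The members were searched for this pattern over all pairs of subsets, and 2 of 77 is 2.6%, against 0.986% of all probe sets (349 of 35399).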

How the results depend on the processing

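The limits are the 3 arrays per group, the pairing that the labels leave unstated, KO sample 3, and a level of Xist not balanced between the genotypes. Xist was low in WT sample 1 and in KO samples 1 and 2, and high in the other samples. Its part in the genotype differences was not tested beyond the fit with Xist as a covariate given here. Of the counts of called members, those that moved by over 1.5 times are given here, with the value of the report in brackets. Shares of all probe sets were not set beside most of these counts, so nothing particular to the list is read from them. For the average they were 2.74% higher and 3.57% lower without KO sample 3. With the arrays of a sample averaged first they were 0.0763% and 0.124%. The fixed replicate block called 1.96% for WT DP minus CD27 and 2.4% for WT CD11b minus DP. It called 10.9% for WT and 6.17% for KO CD11b minus CD27. Array weights gave 12 members for KO against WT in CD27 cells (1), 2 in CD11b cells (1), 9 on average (5), 1 for WT CD11b minus DP (0), 7 for WT CD11b minus CD27 (1) and 3 for KO CD11b minus CD27 (0). Fitting the groups compared alone gave 0 for KO against WT in CD27 and 0 in CD11b cells, and 5 for WT CD11b minus CD27. Leaving out the 3 arrays of the third KO sample gave 0 in CD27 cells, 0 in CD11b cells, 2 on average and 4 for WT CD11b minus CD27. The mean of a gene's probe sets gave 2 in CD11b cells and 1 for WT CD11b minus DP. For the average, cyclic loess gave 9, an intensity trend with a robust prior 3, and, chosen after seeing the data, Xist as a covariate 8 and averaging the arrays of a sample first 0. The replicate block as a fixed term gave 1 for WT DP minus CD27 (Mrps27, where the numbers did not pair), 2 for WT CD11b minus DP, 7 for WT CD11b minus CD27 and 3 for KO CD11b minus CD27. The replicate block as a random term (correlation 0.206) gave 2 on average and 1, 4 and 2 in those last 3 comparisons. The block changed no other count by over 1.5 times, and arrays centred on the median and a filter on low probe sets moved none. For KO against WT the fixed block joined WT and KO arrays of the same number, which did not deviate together. Between subsets it was set within each genotype. The fixed block is thus no check of pairing for the counts of KO against WT. The average and the interaction use all groups, so a fit of fewer groups was not run for them. Leaving out 1 array in turn gave 0 to 1 in CD27 cells, 0 to 2 in CD11b cells, 3 to 8 on average, 0 to 1 for WT CD11b minus DP, 1 to 3 for WT CD11b minus CD27 and 0 to 1 for KO CD11b minus CD27. The members' median then ran from -0.043 to 0.135 in CD27, 0.028 to 0.196 in DP and -0.091 to -0.033 in CD11b cells. On average it ran from -0.009 to 0.056. It also changed sign for KO DP minus CD27 (-0.076 to 0.075), KO CD11b minus CD27 (-0.116 to 0.014) and WT DP minus CD27 (-0.13 to 0.003). Why the counts differ was not tested, beyond the fewer arrays of some settings. The calls of Mrpl14, Mrpl17, Mrpl27, Mrpl48, Mrpl58 and Mrps27 kept their direction in all settings run. Calls in the related lists were rerun, as chosen after seeing the data, without KO sample 3 and with the arrays of a sample averaged; calls made with the block were not rerun.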
